A study of Homo sapiens with 15 samples.

Results

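The transcription factor NRF2, which is encoded by *NFE2L2*, and 7 genes under its control that defend cells against oxidants were followed in THP-1 cells stimulated with bacterial extracellular vesicles (BEVs). The 8 genes are *NFE2L2*, *SLC7A11*, *GCLC*, *GCLM*, *TXNRD1*, *SRXN1*, *NQO1* and *HMOX1*. They were taken by symbol from a count table of 60286 genes, in which each symbol had its own row, and all 8 were among the 17198 genes with enough counts to be tested. THP-1 is an established human monocytic leukaemia cell line, used here without genetic change. The 15 RNA-seq libraries formed 5 groups of 3. Non-stimulated cells (NC) were given PBS. *E. coli* BEVs at 1 μg/mL, prepared by ultracentrifugation (UC) or with ε-poly-L-lysine (PL), stimulated the EUC and EPL groups, and *S. aureus* BEVs at 10 μg/mL, prepared by the same pair of methods, stimulated SUC and SPL. The methods give 6 hours of incubation where the labels give Day 0, and species and dose changed together, so that the effect of either cannot be told apart from the other.

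In resting cells NRF2 is held by KEAP1, which hands it to the proteasome. Oxidants and electrophiles that modify KEAP1, or p62 (*SQSTM1*) that binds it, let NRF2 accumulate, pair with a small MAF protein and bind antioxidant response elements (AREs) in the DNA of its target genes. The targets import cystine, make glutathione, reduce thioredoxin and quinones and break down haem, and in monocytes and macrophages this programme is known to accompany inflammatory activation.

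The ARE core, written TGACNNNGC, was searched on both strands in RefSeq promoter windows of the GRCh38.p14 build, which run from 250 bases before to 50 bases after a transcript start. Windows were held for 6 of the 8 genes and numbered 8 in all. *HMOX1* and *SLC7A11* had no window in the table. The core stood in the windows of *GCLM* and *TXNRD1*, and its letters were not found in those of *NFE2L2*, *NQO1*, *GCLC* and *SRXN1*. DNA outside the windows was not searched, so a window without the core does not show that the gene lacks an ARE. The stretches are shown, 5′ to 3′ on the strand of the gene, because they are the letters that NRF2 is known to read, with the match in capitals. In *GCLM* at -34, *TXNRD1* at -8 and *TXNRD1* at -102 the capitals are the reverse complement of the core, and the number after each name is the distance in bases of the match from the RefSeq start.
GCLM -34, chr1:93909446-93909474, minus strand: tacgatttctGCTTAGTCAttgtcttcca
TXNRD1 -99, chr12:104215670-104215698, plus strand: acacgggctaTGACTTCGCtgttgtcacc
TXNRD1 -8, chr12:104215761-104215789, plus strand: gcgtccttcgGCTCCGTCAgttcccacag
TXNRD1 -102, chr12:104286920-104286948, plus strand: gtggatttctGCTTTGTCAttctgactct
The *GCLM* stretch reaches into the first exon of a longer GENCODE transcript of the gene. The first 2 *TXNRD1* stretches lie at the start of the longest *TXNRD1* transcript, and the last lies upstream of an internal start, where GENCODE places first exons of other *TXNRD1* transcripts. By gene, the core was also present in the windows of 16.06% of all 27305 genes, and of 27 of 115 other genes of the pathway (23.48%). By window, it was present in 13.35% of all 35116 windows. The letters of an AP-1 site (TGANTCA), which can share its first bases with an ARE, were in none of the 8 windows and in 7.71% of all windows. These matches are descriptions of sequence, since no binding was measured.

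Each library held 14399421 to 16637345 reads on genes. Levels are given as CPM, read counts relative to a library size that was scaled by the TMM method, whose factors ran from 1.07 to 1.09 in NC libraries and from 0.915 to 1.01 in BEV-stimulated libraries. Scaling by library totals alone, in place of TMM, moved the median of all tested genes by -0.16, -0.12, -0.12 and -0.11 on the log2 scale against NC for EUC, EPL, SUC and SPL. Monocytic identity was checked with 10 marker genes, all of which were expressed, with a summed level of 1441 to 1449 CPM in NC and 2002 to 2540 CPM in the BEV-stimulated libraries. The higher sum came mainly from *SPI1* (471 CPM in NC, 960 to 1198 CPM in the stimulated groups), *CSF1R* and *PTPRC*, while *CD33*, *LYZ* and *MPO* had lower means in all 4 stimulated groups than in NC. None of 4 T cell or 4 erythroid markers reached 1 CPM on average, and 2 and 3 of them had no count at all. The 4 fibroblast markers summed to 0.640 to 0.941 CPM in NC and 2.12 to 7.02 CPM after stimulation. The part of these shifts in the results that follow was not tested.

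All 8 genes stood higher in BEV-stimulated than in non-stimulated cells, and for each of them the 12 stimulated libraries lay above the 3 NC libraries without overlap. Among all tested genes, 17.5% were separated in this way. The share of genes separated between stimulated groups was not counted, so such separations are given below as descriptions only. Genes with an adjusted p of at most 0.01 (quasi-likelihood test of edgeR, Benjamini-Hochberg) are said here to have risen or fallen, and those with a change of at least 2-fold as well are called DEGs. In EUC, 7 of the 8 genes were DEGs, where 9.43% of all tested genes were DEGs with higher and 5.75% with lower expression. The same 7 genes were DEGs in EPL, SUC and SPL, where the shares over all tested genes were 9.38%, 6.82% and 7.76% higher and 5.15%, 3.06% and 3.7% lower. Over all tested genes, 6.33% were DEGs with higher expression in all 4 groups at once. *GCLC* was the exception in each comparison. It rose by less than 2-fold, and with it all 8 genes rose in every group, where 16.5%, 16%, 12.4% and 13.3% of all tested genes rose in EUC, EPL, SUC and SPL and 14%, 13.2%, 9.15% and 10.6% fell. In all 4 groups at once, 10.9% of tested genes rose. For EUC, EPL, SUC and SPL, the 8 genes had median log2 fold changes of 1.91, 1.58, 1.64 and 1.54. The median over all tested genes lay between -0.01 and 0.01. Together the 8 genes took 0.0745% of the TMM-scaled library size in NC, and 0.340%, 0.308%, 0.267% and 0.273% in EUC, EPL, SUC and SPL. That size differs from the reads of a library by the TMM factor, so these are not shares of reads. The 4 comparisons share the same 3 NC libraries, so their results are not independent of each other. RNA of whole cultures was measured, so a rise in every cell and a larger rise in some cells cannot be told apart.

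**Figure D1:**
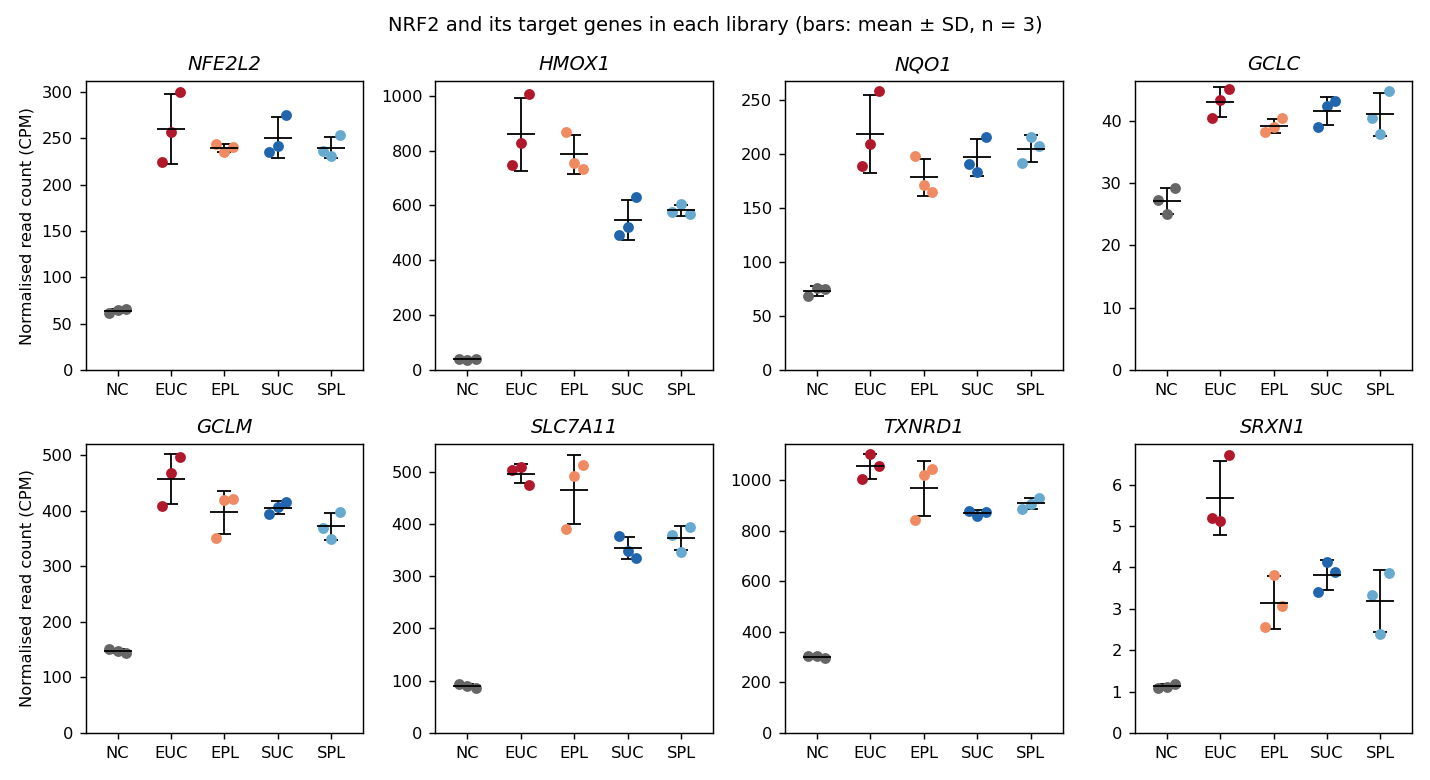
Level of *NFE2L2* and 7 of its target genes in each of the 15 libraries, in CPM on linear axes from 0, by group (NC, PBS; EUC and EPL, *E. coli* BEVs prepared by UC or PL; SUC and SPL, *S. aureus* BEVs likewise). Each point is 1 library, and the bars are the mean ± SD of 3 libraries. All stimulated libraries lie above the NC libraries for each gene, with the largest relative gap for *HMOX1* and the smallest for *GCLC*.

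*NFE2L2* itself (ENSG00000116044, chr2:177218667-177392756, minus strand, hg38) encodes the transcription factor. Its level was 62.0, 64.6 and 66.4 CPM in the NC libraries. In the stimulated libraries it was 224, 256 and 300 CPM (EUC), 244, 235 and 240 CPM (EPL), 235, 242 and 276 CPM (SUC) and 237, 230 and 253 CPM (SPL). The 4 stimulated groups overlapped each other and stood clear of NC. The log2 fold change against NC was 2.02 (SE 0.0997, adjusted p = 3.25e-11, edgeR) for EUC, and 1.90, 1.96 and 1.90 for EPL, SUC and SPL. Regulation of NRF2 is known to act mainly on the stability of the protein, which was not measured here. Part of the exons of *NFE2L2* (23.43%) lies opposite exons of *HNRNPA3*, an abundant gene for an RNA-binding protein, and the strand setting of the counting is not given in the sources used here. Reads of the overlapping stretch can therefore not be assigned with certainty.

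Of the genes that supply and make glutathione, *SLC7A11*, *GCLC* and *GCLM* rose by different amounts. *SLC7A11* (ENSG00000151012, chr4:138164097-138242349, minus strand) encodes xCT, the transporter chain that imports cystine in exchange for glutamate. It was at 92.7, 90.6 and 86.8 CPM in NC, and at 504, 510 and 475 CPM (EUC), 391, 493 and 514 CPM (EPL), 376, 348 and 335 CPM (SUC) and 379, 347 and 393 CPM (SPL) with BEVs. All EUC libraries were above all *S. aureus* libraries, whereas the lowest EPL library reached into the range of SPL. Its log2 fold change against NC was 2.46 (SE 0.0996, adjusted p = 2.24e-12, edgeR) for EUC, and 2.37, 1.97 and 2.05 for EPL, SUC and SPL.

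*GCLC* (ENSG00000001084, chr6:53497341-53616970, minus strand) and *GCLM* (ENSG00000023909, chr1:93885199-93909456, minus strand) encode the catalytic and the modifier subunit of glutamate-cysteine ligase, the rate-limiting enzyme of glutathione synthesis. *GCLC* was at 27.3, 25.0 and 29.2 CPM in NC, and at 40.5, 43.3 and 45.2 CPM (EUC), 38.2, 38.9 and 40.5 CPM (EPL), 39.0, 42.4 and 43.2 CPM (SUC) and 40.4, 37.9 and 44.7 CPM (SPL) with BEVs. *GCLM* was at 152, 148 and 143 CPM in NC, and at 408, 469 and 496 CPM (EUC), 352, 419 and 421 CPM (EPL), 394, 408 and 416 CPM (SUC) and 370, 349 and 398 CPM (SPL) with BEVs. Neither gene overlapped between NC and any stimulated group, and the only stimulated groups without overlap were EUC and SPL for *GCLM*. The log2 fold change of *GCLC* was 0.66 (SE 0.0899, adjusted p = 1.2e-05), 0.53, 0.61 and 0.60 in EUC, EPL, SUC and SPL, and that of *GCLM* was 1.63 (SE 0.0919, adjusted p = 1.81e-10), 1.43, 1.46 and 1.33 (edgeR). The estimate for the modifier subunit was the larger in each group. Per kilobase of the canonical transcript, the level of *GCLM* was 4.24 ± 0.401 times that of *GCLC* in NC, and 8.24 ± 0.368, 7.85 ± 0.629, 7.58 ± 0.214 and 7.04 ± 0.129 times with stimulation, for EUC, EPL, SUC and SPL (SD, n = 3). The highest ratio in NC, 4.60, lay below the lowest of any stimulated library, 6.89.

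*TXNRD1* (ENSG00000198431, chr12:104215779-104350307, plus strand) encodes the cytosolic thioredoxin reductase, which uses NADPH to reduce thioredoxin. It was at 305, 303 and 295 CPM in NC, and at 1006, 1104 and 1055 CPM (EUC), 843, 1019 and 1043 CPM (EPL), 878, 860 and 876 CPM (SUC) and 887, 907 and 931 CPM (SPL) with BEVs. The EPL range was the widest and took in all 6 *S. aureus* libraries, while SUC lay just below SPL without overlap. The log2 fold change was 1.81 (SE 0.0821, adjusted p = 1.03e-11, edgeR) for EUC, and 1.69, 1.53 and 1.59 for EPL, SUC and SPL. *SRXN1* (ENSG00000271303, chr20:646615-653200, minus strand) encodes sulfiredoxin, which repairs overoxidized peroxiredoxins, and had the lowest level of the 8 genes. It was at 1.09, 1.12 and 1.19 CPM in NC, and at 5.20, 5.13 and 6.71 CPM (EUC), 2.56, 3.82 and 3.06 CPM (EPL), 3.42, 4.12 and 3.90 CPM (SUC) and 3.32, 2.38 and 3.86 CPM (SPL) with BEVs. EUC stood above all other groups, and the other 3 stimulated groups overlapped. Its log2 fold change was 2.32 (SE 0.230, adjusted p = 3.01e-07), 1.47 (SE 0.241), 1.74 (SE 0.237) and 1.48 (SE 0.241) in EUC, EPL, SUC and SPL (edgeR), with the largest errors among the 8 genes. The gene had 786 counts over the 15 libraries. Of its exon bases, 90.66% are shared with a gene listed separately on the same strand (ENSG00000270299, 38 counts in all), so its count is uncertain.

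*NQO1* (ENSG00000181019, chr16:69706996-69726668, minus strand) encodes a quinone reductase that is widely used as a readout of NRF2. It was at 68.3, 76.4 and 75.4 CPM in NC, and at 188, 209 and 258 CPM (EUC), 198, 171 and 165 CPM (EPL), 191, 184 and 216 CPM (SUC) and 192, 215 and 207 CPM (SPL) with BEVs. All stimulated groups overlapped each other. Its log2 fold change was 1.57 (SE 0.113, adjusted p = 4.64e-09, edgeR) for EUC, and 1.28, 1.42 and 1.48 for EPL, SUC and SPL.

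*HMOX1* (ENSG00000100292, chr22:35380361-35394214, plus strand) encodes the inducible haem oxygenase, which opens haem to biliverdin, carbon monoxide and iron, and changed the most of the 8 genes. It was at 41.3, 38.6 and 40.4 CPM in NC, and at 746, 827 and 1005 CPM (EUC), 868, 756 and 734 CPM (EPL), 491, 521 and 630 CPM (SUC) and 575, 606 and 567 CPM (SPL) with BEVs. The groups followed the order NC, SUC, SPL, EPL and EUC by their means. SUC and SPL overlapped, as did EPL and EUC, whereas SPL and EPL did not. Its log2 fold changes for EUC, EPL, SUC and SPL were 4.42 (SE 0.128, adjusted p = 3.5e-14), 4.29 (SE 0.128), 3.77 (SE 0.125) and 3.86 (SE 0.125) by edgeR, which are rises of 21.4-fold, 19.6-fold, 13.6-fold and 14.5-fold. It ranked at 273, 277, 245 and 280 of the 17198 tested genes by fold change. *HMOX2*, which encodes the constitutive haem oxygenase, served as a paralog for comparison. The level of *HMOX1* per kilobase was 1.23 ± 0.0997 times that of *HMOX2* in NC, and 31.8 ± 1.07, 31.7 ± 1.32, 18.9 ± 0.193 and 23.0 ± 2.10 times for EUC, EPL, SUC and SPL (SD, n = 3).

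Per kilobase of canonical transcript, the order of the levels changed with stimulation. In NC the highest mean level was that of *TXNRD1*, at 77.9 CPM per kb, ahead of *GCLM* (30.3), *NQO1* (29.1), *NFE2L2* (26.3), *HMOX1* (25.8), *SLC7A11* (9.34), *GCLC* (7.17) and *SRXN1* (0.448 CPM per kb). The 4 genes from *GCLM* to *HMOX1* changed places between NC libraries. In all 12 stimulated libraries *HMOX1* was the highest, with a mean of 553 CPM per kb in EUC, and *TXNRD1* came next, with 273 CPM per kb in EUC. *SLC7A11*, *GCLC* and *SRXN1* stayed at the low end in every library, though the place of *SRXN1* is uncertain because most of its exon bases are shared with another gene. The order below *TXNRD1* and *HMOX1* depends on the length used, since *NFE2L2* fell to 4.30 CPM per kb in NC, below *SLC7A11*, when all annotated exons were counted.

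**Figure D2:**
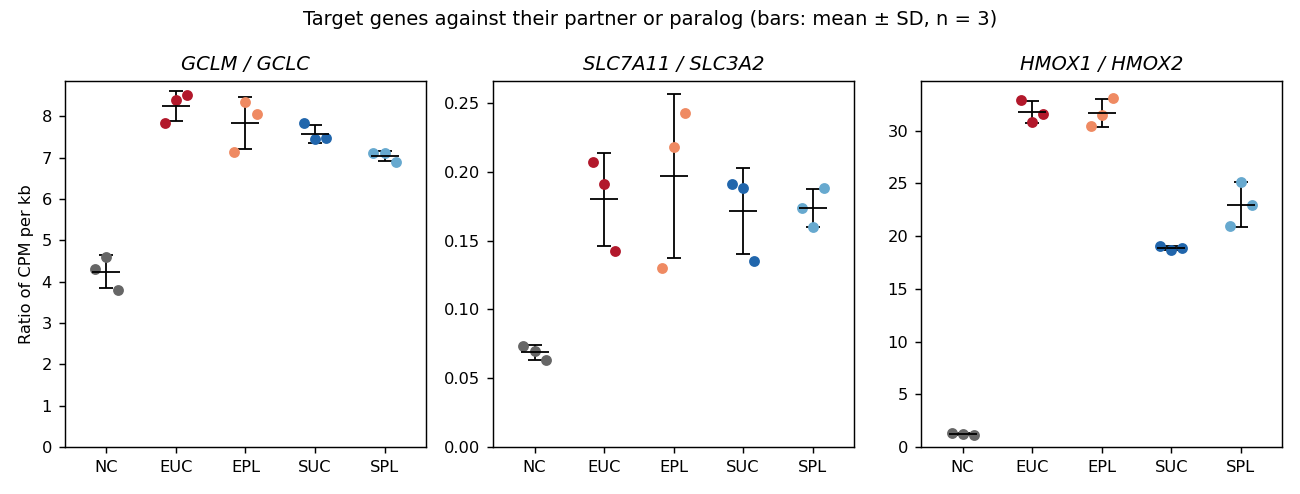
Ratio of CPM per kilobase of canonical transcript between a target gene and its partner or paralog in each library, by group (NC, PBS; EUC, EPL, SUC and SPL as named in the text). Points are libraries and bars are the mean ± SD of 3 libraries. The mean ratio of *GCLM* to *GCLC* was 4.24 in NC and between 7.04 and 8.24 with BEVs, that of *SLC7A11* to *SLC3A2* 0.0688 and between 0.172 and 0.197, and that of *HMOX1* to *HMOX2* 1.23 and between 18.9 and 31.8.

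The BEVs of the 2 species were compared as the mean of EUC and EPL against the mean of SUC and SPL. *HMOX1* was at 734 to 1005 CPM in the 6 *E. coli* libraries and at 491 to 630 CPM in the 6 *S. aureus* libraries, without overlap. The share of all tested genes separated between the species was not counted. For *HMOX1* the log2 difference was 0.54 (SE 0.0782, 95% interval 0.376 to 0.707, adjusted p = 0.000245, edgeR), or 1.46-fold. *SLC7A11* was at 391 to 514 CPM against 335 to 393 CPM, ranges that just overlapped, with a log2 difference of 0.41 (SE 0.0664, 95% interval 0.264 to 0.546, adjusted p = 0.000774, edgeR). Both estimates were smaller among BEVs isolated by PL and did not pass there, at 0.43 for *HMOX1* (adjusted p = 0.0801) and 0.32 for *SLC7A11* (adjusted p = 0.155), while among BEVs isolated by UC both passed, at 0.65 (adjusted p = 0.00152) and 0.49 (adjusted p = 0.00425, edgeR). None of the 8 genes reached a 2-fold difference, a mark passed by 0.663% of all tested genes with higher and 0.0233% with lower levels after *E. coli* BEVs. Without that mark, 2 of the 8 genes and 2.87% of all tested genes were higher after *E. coli* BEVs. How many of all tested genes passed within 1 isolation method was not counted.

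The other 6 genes did not pass this comparison. *TXNRD1* had a log2 difference of 0.18 (95% interval 0.0652 to 0.303, adjusted p = 0.0632, edgeR). Leaving out single libraries in turn moved it from 0.15 to 0.23, with adjusted p (edgeR) between 0.00464 and 0.211. The value of 0.00464, which passed, was reached without the lowest EPL library. For *GCLM* the difference was 0.13 (95% interval 0.000671 to 0.268) and for *SRXN1* 0.28 (95% interval -0.0303 to 0.588). Those of *NFE2L2* (0.03, 95% interval -0.117 to 0.168), *NQO1* (-0.03, -0.189 to 0.138) and *GCLC* (-0.01, -0.141 to 0.125) lay closest to 0. For these 3 genes the interval leaves room for a difference of at most about 0.19 on the log2 scale in either direction. This holds for the mean over both isolation methods only. Within 1 method the estimate of *NQO1* was 0.15 (UC) or -0.20 (PL), so its mean near 0 joins values of opposite sign. Because the *S. aureus* BEVs were given at 10 μg/mL and the *E. coli* BEVs at 1 μg/mL, these values compare the 2 preparations at their own doses.

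**Figure D3:**
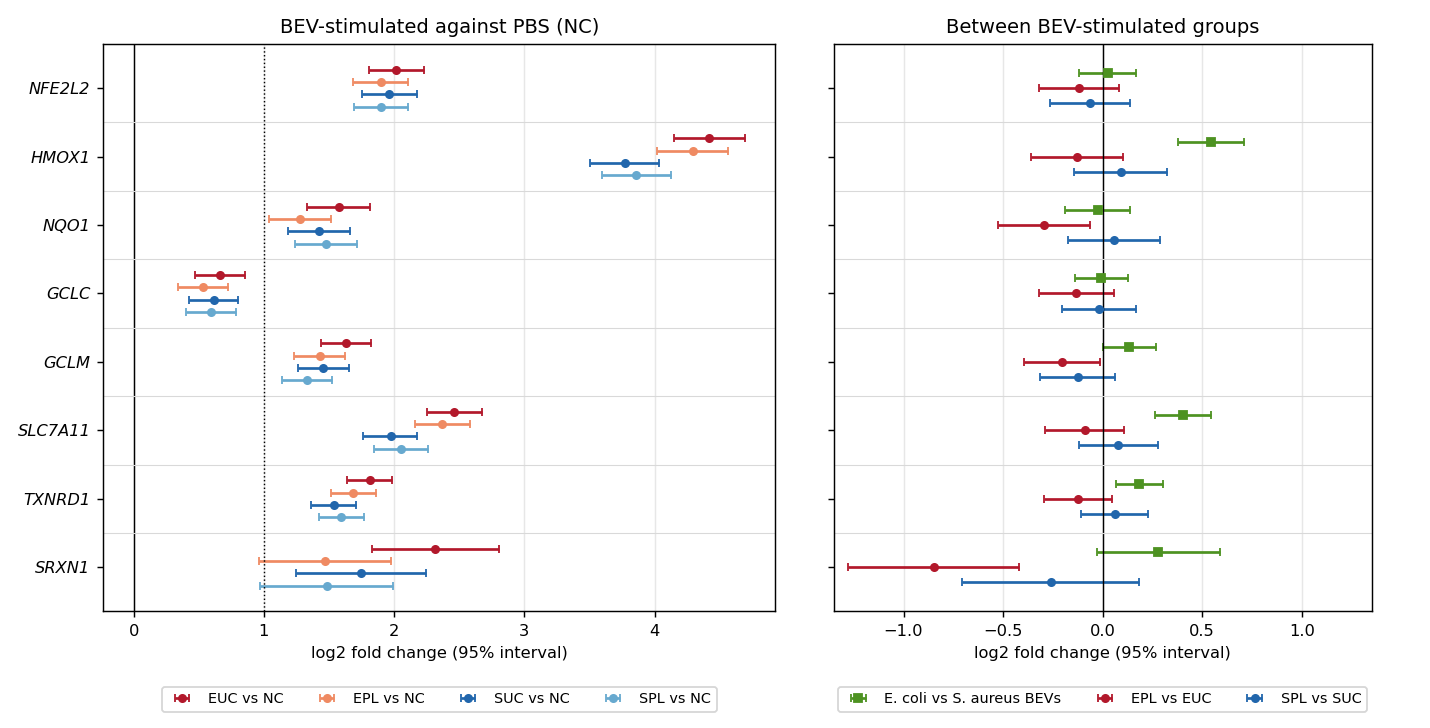
Log2 fold changes of the 8 genes with 95% intervals from the edgeR fit over 15 libraries, for the 4 stimulated groups against NC (left; the dotted line marks 2-fold) and between stimulated groups (right; squares, *E. coli* against *S. aureus* BEVs; circles, PL against UC within a species). *HMOX1* and *SLC7A11* lie furthest to the right of 0 in the comparison of species, at 0.54 and 0.41.

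Isolation by PL and by UC was compared within each species. None of the 8 genes passed for either species, where no gene at all was a DEG for *E. coli* (0%) and 0.00581% of tested genes were DEGs with higher levels in SPL than in SUC. For *E. coli* BEVs, all 8 genes had lower estimates in EPL than in EUC, from -0.09 for *SLC7A11* to -0.85 for *SRXN1* on the log2 scale, with an adjusted p of 0.947 for each. The median was -0.13 for the 8 genes, -0.09 for 137 other genes of the pathway and 0.003 for all tested genes. Without adjustment, 3 of the 8 genes and 3.51% of all tested genes (604 genes) had a p of at most 0.05 in that comparison. They were *SRXN1* (95% interval -1.28 to -0.419), *NQO1* (-0.294, 95% interval -0.526 to -0.0625) and *GCLM* (-0.205, 95% interval -0.394 to -0.016). *SRXN1* was the 1 gene of the 8 without overlap between EUC (5.13 to 6.71 CPM) and EPL (2.56 to 3.82 CPM). For *S. aureus* BEVs the estimates ran from -0.26 to 0.09, with 4 of 8 below 0, intervals within -0.705 and 0.324 and a smallest adjusted p of 0.882. *TXNRD1* did not overlap between SUC and SPL, with a log2 difference of 0.06. The share of all tested genes without overlap was not counted for EUC and EPL or for SUC and SPL. These separations are therefore descriptions only. The difference between the methods was also compared between the species, and no gene passed at the adjusted threshold. DESeq2 called none of the 8 genes in any of these comparisons of methods either.

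The other genes of the pathway were taken from 7 lists, of which 137 genes of 143 were tested. In all 4 stimulated groups, 42 of them rose and 18 fell, where 1877 (10.9%) rose and 1319 (7.67%) fell among all 17198 tested genes. Of the 137 genes, 23 were DEGs with higher and 8 with lower expression in every group, as were 1089 (6.33%) and 415 (2.41%) of all tested genes. The 137 genes had median log2 fold changes of 0.10, -0.04, 0.09 and 0.03 in the same order of groups. These medians lay below those of the 8 genes in each group. The 8 genes and the lists were chosen with earlier results of these data known, so this order is not a test. In EUC, the list medians were 0.48 for NRF2 control, -0.13 for glutathione synthesis and use, 0.04 for the thioredoxin and peroxiredoxin system, -0.02 for NADPH supply, 0.14 for haem and iron handling, 0.47 for quinone and carbonyl detoxification and -0.24 for the amino acid and ATF4 response.

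**Figure D4:**
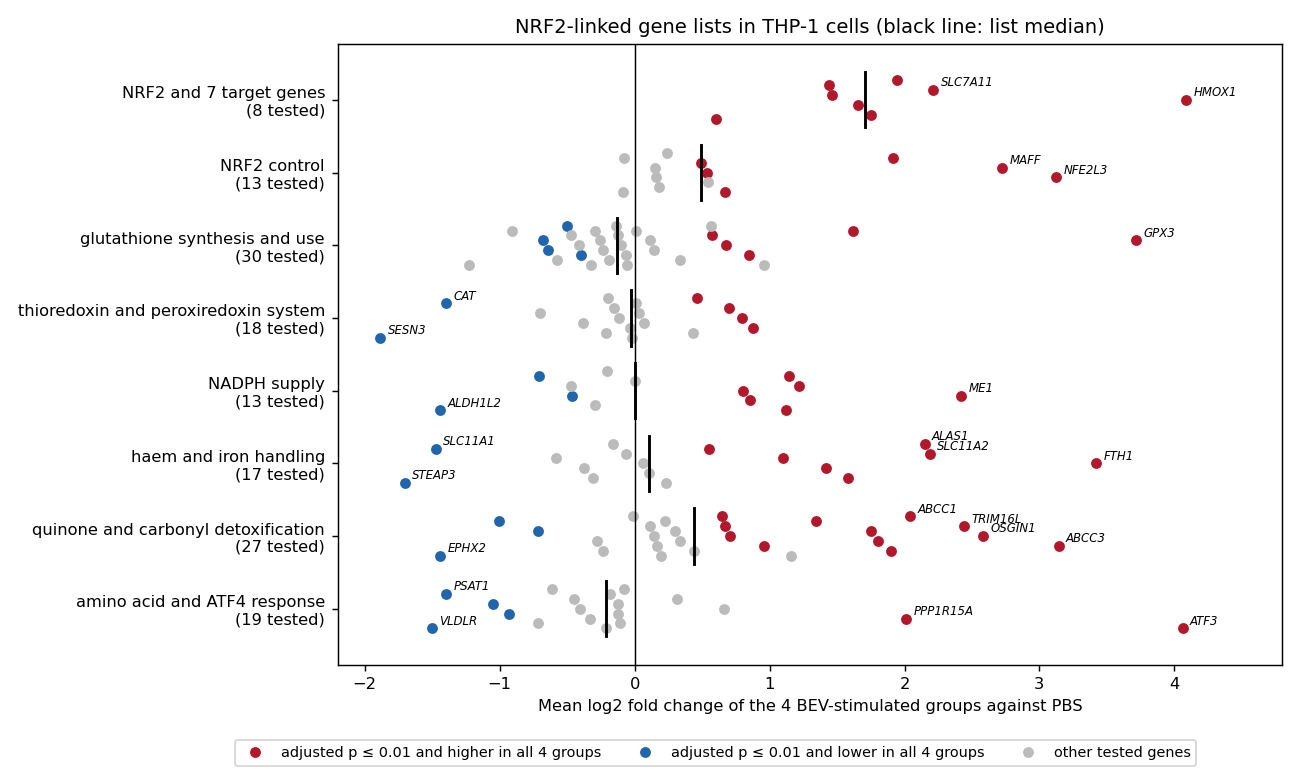
Mean log2 fold change of the 4 stimulated groups against NC for *NFE2L2* and its 7 targets and for the genes of 7 related lists. Each point is a gene, coloured by whether it passed an adjusted p of 0.01 in all 4 groups, and the black lines are list medians. The 8 genes lie between 0.60 and 4.09, and the lists spread to both sides of 0. Genes and lists were chosen with earlier results of these data known.

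Among 13 tested genes that control NRF2, 6 rose in all 4 groups and none fell in any, where 10.9% of all tested genes rose and 7.67% fell in all 4. *SQSTM1*, which encodes p62, rose from 156 ± 5.12 CPM in NC to reach 685 ± 63.4 CPM in EUC and between 544 and 594 CPM in the other groups. *MAFF*, a small MAF protein, was at 1.51 ± 0.427 CPM in NC, and rose to 14.5 ± 2.08 CPM in EUC and between 8.08 and 9.87 CPM elsewhere. The related factor gene *NFE2L3* rose from 7.24 ± 0.442 CPM to between 57.8 and 66.1 CPM. Of the genes that restrain NRF2, the repressor *BACH1* rose by 0.63 to 0.73 and *KEAP1* by 0.49 to 0.67 on the log2 scale. The ubiquitin ligase genes *CUL3*, *RBX1*, *BTRC*, *FBXW11* and *SYVN1*, whose products take part in the breakdown of NRF2, did not pass in all 4 groups, with mean estimates of -0.08 to 0.24. Of the other small MAF genes, *MAFG* rose by 0.39 to 0.57, and *MAFK* had estimates of -0.14 to -0.04 that did not pass.

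The list of glutathione synthesis and use was mixed. Of 30 tested genes, 5 were higher and 4 lower in all 4 groups, beside 10.9% and 7.67% of all tested genes. *GPX3*, the secreted glutathione peroxidase, rose from 1.85 ± 0.296 CPM to between 20.9 and 26.7 CPM. *GSR*, which returns oxidized glutathione to its reduced form, rose from 127 ± 3.91 CPM in NC to reach 432 ± 52.0 CPM in EUC and between 361 and 389 CPM in the other groups. *GSS*, the second enzyme of glutathione synthesis after glutamate-cysteine ligase, had estimates of -0.12 to 0.00 and did not pass. *SLC3A2*, the chain that pairs with xCT at the membrane, rose by 1.10, 0.91, 0.68 and 0.71 for EUC, EPL, SUC and SPL, which is less than *SLC7A11* in each group. The level of *SLC7A11* per kilobase was 0.0688 ± 0.00525 of that of *SLC3A2* in NC and between 0.172 and 0.197 in the stimulated groups. *GPX7*, *GLO1*, *GSTK1* and *OPLAH* were the 4 genes that fell, by means of 0.68, 0.64, 0.50 and 0.40 on the log2 scale. *GPX8* passed in SPL alone, at -1.24 (adjusted p = 0.00972, edgeR).

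In the thioredoxin and peroxiredoxin system, 4 of 18 genes rose and 2 fell in all 4 groups (10.9% and 7.67% of all tested genes). *TXN*, the substrate of thioredoxin reductase, rose by 0.68 to 0.99, and *PRDX1*, a peroxiredoxin repaired by sulfiredoxin, by 0.80 to 0.98. *CAT*, the peroxisomal catalase that removes hydrogen peroxide, fell from 479 ± 2.56 CPM in NC to 159 ± 10.0 and 162 ± 4.59 CPM in EUC and EPL, and to 217 ± 10.5 and 197 ± 5.26 CPM in SUC and SPL. *SESN3*, a stress-response sestrin, fell from 353 ± 24.3 CPM to between 85.9 and 104 CPM.

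NADPH is the reductant that glutathione reductase, thioredoxin reductase and NQO1 draw on. In all 4 groups, 6 of 13 genes that supply it rose and 3 fell (10.9% and 7.67% of all tested genes). *ME1*, the cytosolic malic enzyme, rose from 54.0 ± 3.18 CPM in NC to reach 325 ± 47.9 CPM in EUC and between 265 and 300.4 CPM in the other groups. *PGD* of the pentose phosphate pathway rose by 1.08 to 1.20 on the log2 scale. In mitochondrial folate metabolism the directions were opposite, with *MTHFD2* higher by 1.00 to 1.42 and *ALDH1L2* lower, between -1.68 and -1.24.

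Haem and iron handling had 7 of 17 genes higher and 2 lower in all 4 groups (10.9% and 7.67% of all tested genes). The ferritin light chain *FTL*, which with the heavy chain stores iron, rose from 3823 ± 83.4 CPM in NC to reach 11670 ± 2513 CPM in EUC and between 9590 and 9964 CPM in the other groups. The heavy chain *FTH1* had 166 ± 10.4 CPM in NC and 1448 to 2343 CPM after stimulation, a value that is uncertain because many processed copies of the gene can share its reads. *ALAS1*, which begins haem synthesis, rose from 80.4 ± 1.50 CPM to between 328 and 380 CPM, and *SLC11A2*, an iron transporter, from 21.3 ± 1.64 CPM to between 89.3 and 105 CPM. *STEAP3*, an endosomal ferrireductase, fell from 57.7 ± 2.75 CPM to between 15.0 and 21.8 CPM. The biliverdin reductases *BLVRA* and *BLVRB*, which take up the product of haem oxygenase, had estimates of -0.03 to 0.14 and of -0.15 to 0.09 that did not pass.

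In quinone and carbonyl detoxification, 12 of 27 genes rose and 3 fell in all 4 groups (10.9% and 7.67% of all tested genes). *OSGIN1*, an oxidative stress-induced growth inhibitor, rose from 15.7 ± 1.33 CPM to between 78.9 and 102 CPM. The export pumps *ABCC3* and *ABCC1* rose from 9.67 ± 0.783 CPM to between 71.8 and 94.4 CPM, and from 117 ± 5.91 CPM to between 396 and 534 CPM. *TRIM16L* rose by 2.34 to 2.62 on the log2 scale, but reads can be split between it and its near copy *TRIM16*. The amino acid and ATF4 list holds genes that respond to shortage of amino acids. Of its 19 tested genes, 4 were lower in all 4 groups (7.67% of all tested genes). Only 2 were higher, a share near the 10.9% of all tested genes. The 2 that rose were *ATF3*, a stress-induced factor, from 3.87 ± 0.461 CPM to between 43.6 and 85.8 CPM, and *PPP1R15A*, which ends the translational stress response, from 38.6 ± 0.222 CPM to between 144 and 178 CPM. The means of the 4 log2 fold changes were -1.40 and -0.93 for *PSAT1* and *PHGDH* of serine synthesis, -1.50 for *VLDLR*, a lipoprotein receptor, and -1.05 for *EIF4EBP1*, a translation repressor.

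The genes most like each of the 8 were found by Pearson's r of their log2 CPM, taken across 15 libraries, among 14526 genes with a mean of at least 1 CPM. The closest to *NFE2L2* were *SDCBP*, *LAP3* and *RIT1* (r of 0.998, 0.998 and 0.997), and the closest to *HMOX1* were *HPYR1*, *SOD2* and *CD40* (r = 0.998 each). *NQO1* was nearest to *OSGIN1*, *LYRM4* and *PIR* (r of 0.993, 0.992 and 0.992), where *OSGIN1* and *PIR* are on the list of quinone and carbonyl detoxification. *SLC7A11* was nearest to the carboxypeptidase gene *CPM*, *TFEC* and *CD44* (0.998, 0.998 and 0.997), *GCLM* to *SLC30A1*, *MCOLN2* and *CYP19A1* (0.994, 0.993 and 0.992), and *TXNRD1* to *MCL1*, *NFKB1* and *MCOLN2* (0.997, 0.997 and 0.997). *GCLC* (*SDCBP*, *PDGFA* and *IER3*) and *SRXN1* (*PLAA*, *CDV3* and *MAFF*) had their nearest genes at lower values, from 0.966 to 0.970 and from 0.948 to 0.954. Each correlation is set largely by the step from the 3 NC libraries to the 12 stimulated ones, which all points share. Between pairs of the 8 genes, r over 15 libraries ran from 0.898 to 0.995, and over the 12 stimulated libraries from -0.196 to 0.903 with a median of 0.502.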

How the data were processed

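Total RNA was extracted by the authors with Trizol, made into libraries with a NEB kit and aligned to hg38. Submitters' processing notes name FastQC 0.11.5, HISAT2 2.1.0, StringTie 1.3.3b, DESeq 1.28.0 and featureCounts, without roles. For the annotation release and the strand setting, nothing is given in the sources used here. The deposited values are whole-number counts of reads per Ensembl gene, without normalization. Of 60286 genes, 23219 had no count, and 0 columns of values were left unused.

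Groups were taken from the deposited labels. The deposited counts entered edgeR 4.0.16 (R 4.3.3) with filterByExpr, TMM scaling and the quasi-likelihood test over all 15 libraries, without a replicate block. P-values were adjusted by Benjamini-Hochberg over 17198 genes. For DEGs, the adjusted p was at most 0.01 and the size of the log2 fold change at least 1. The common coefficient of variation was 0.118. The methods state that cells were stimulated in wells and in triplicate for each group, without saying whether on separate days, so p-values measure the spread between such libraries. DESeq2 1.42.0, other scalings, no filter, single libraries left out, each isolation method alone and a replicate block were alternatives. The code was tested on simulated data. Positions, transcript lengths and overlaps are from GENCODE release 44. Log2 CPM used a prior count of 2.

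Besides the 8 genes, the text names up to 4 genes of each list with the largest mean change, a mean of at least 1 CPM and an adjusted p of at most 0.01 in any comparison with NC, and 16 partners of the 8 genes, of which 1 is not reported here. *HMOX2*, *PHGDH*, *EIF4EBP1*, the 5 ubiquitin ligase genes, *GPX7*, *GLO1*, *GSTK1* and *OPLAH* were added after their values were seen. The members and lists were chosen with earlier results of these data known.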

Additional observations from a re-analysis of the deposited data

Results flagged for a closer look

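The comparison of *E. coli* with *S. aureus* BEVs drew 6 genes to closer attention, because the change against NC differed between the species by an edgeR quasi-likelihood test of the difference itself. The log2 difference was 0.54 for *HMOX1* (SE 0.0782, adjusted p = 0.000245) and 0.41 for *SLC7A11* (SE 0.0664, adjusted p = 0.000774). Among the other named genes of the pathway, *ATF3* (0.59, adjusted p = 0.00015) and *MTHFD2* (0.34, adjusted p = 0.000413) stood higher after *E. coli* BEVs, and *CAT* (-0.37, adjusted p = 0.000141) and *STEAP3* (-0.43, adjusted p = 0.00104) stood lower. Over both methods together, 5 of the 137 other genes of the pathway were higher and 3 lower after *E. coli* BEVs. The shares over all tested genes were 2.87% and 1%. All 6 flagged genes passed among BEVs isolated by UC and none among those isolated by PL. With PL the log2 differences were 0.43, 0.32, 0.20, 0.25, -0.28 and -0.33 in the same order, with adjusted p from 0.0709 to 0.725 (edgeR). The 6 were picked for passing over both methods, and the share of all tested genes that passed within 1 method was not counted. Their counts by method are therefore descriptions only. Whether the difference between species itself depended on the method was tested by the contrast of methods between species, in which none of the 6 passed. Species and dose cannot be told apart. Groups of 3 libraries were not tested for outlying samples.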

How the results depend on the processing

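All 416 alternative values of the 8 genes against NC kept their direction and their side of the adjusted p, with log2 fold changes from 0.41 to 4.52. The number of DEGs among the 8 genes changed only without the fold threshold, from 7 to 8 in each group against NC and from 0 to 2 between the species. With a replicate block, the 8 genes gave 7 DEGs in each group against NC and 0 in the other comparisons, and *HMOX1* was at 0.54 between the species. Libraries of different groups with the same replicate number correlated at a median of 0.0219 in their deviations from group means (30 pairs, 7 above 0.1). Those with different numbers had a median of -0.0078 (60 pairs, 12 above 0.1). The same-number pairs ran from -0.452 (EUC1 with EPL1) to 0.525 (EUC3 with SUC3). A median over all groups can therefore not tell whether some of the groups were paired by replicate number.

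Directions turned only for values that did not pass. Between the species *NFE2L2* gave -0.0025 with library totals and -0.0023 with PL libraries, *SRXN1* -0.015 with PL libraries, and *NQO1* 0.15 and *GCLC* 0.049 with UC libraries. Leaving out 1 library moved these from -0.0436 to 0.0656 for *NFE2L2*, -0.106 to 0.0143 for *NQO1* and -0.0397 to 0.0155 for *GCLC*. In EPL against EUC it moved *HMOX1* from -0.221 to 0.00024 and *SLC7A11* from -0.173 to 0.0194, and in SPL against SUC *NFE2L2* from -0.108 to 0.0098 and *GCLC* from -0.0802 to 0.0334. The cause was not tested. Of the other named genes, 1615 values against NC kept their call, and 10 that lost it were of *GPX8* and *TXN* in SPL. With 786 counts in all, the precision for *SRXN1* is limited, and the count itself is uncertain because of the shared exon bases.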

Other observations

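Within each stimulated group, the library with the lowest TMM factor had the highest *HMOX1* and the highest *NQO1* of its 3 libraries, and the lowest *SLC7A11*. These were EUC replicate 3 (factor 0.915), EPL replicate 1 (0.961), SUC replicate 3 (0.958) and SPL replicate 2 (0.983). *HMOX1* was at 1005, 868, 630 and 606 CPM in them and *NQO1* at 258, 198, 216 and 215 CPM. *SLC7A11* was at 475, 391, 335 and 347 CPM. In the first 3 of these libraries the number of genes with a count was also the lowest of the group (24408, 25081 and 24662). CPM is computed with the TMM factor, so a lower factor by itself raises the CPM of every gene in that library. The pattern was noticed in the data and was not tested.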
